A study of Homo sapiens with 9 samples.

Results

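The genes described here supply cysteine and glutathione, the thiols that pigment cells draw on when they make pheomelanin. They are 10 genes picked by name for their role, with earlier results of these data known: MFSD12, SLC7A11, SLC3A2, CTNS, CTH, CBS, GCLC, GCLM, GSS and GSR. All 10 were found among the 25382 entries of the count table, and all 10 passed the filter on low counts, which kept 14731 genes.

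Pheomelanin, the red-yellow pigment, forms when cysteine adds to dopaquinone, the product of tyrosinase, whereas eumelanin forms where no cysteine is added. Cells import cystine through an exchanger made of a light chain, SLC7A11, and a heavy chain, SLC3A2, and they can also build cysteine from methionine through CBS and then CTH. MFSD12 carries cysteine into melanosomes and lysosomes, and CTNS, or cystinosin, carries cystine out of them. Glutathione, the main thiol store, is built from cysteine by glutamate-cysteine ligase, with the catalytic subunit GCLC and the modifier subunit GCLM, and then by glutathione synthetase, GSS. Glutathione reductase, GSR, returns oxidised glutathione to its reduced form with NADPH.

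RNA came from 9 cultures of 501mel, an established human melanoma line, lysed 24 h after lipofection with a DsiRNA, a synthetic duplex that Dicer cuts into a silencing guide. The control group received the duplex NC1, and the TBX3 knock-down groups received DsiRNA 13.6 or DsiRNA 13.8, with 3 biological replicates per group. TBX3 is a T-box transcription factor, and the series' title ties it to pheomelanin synthesis and to loss of signalling by the melanocortin receptor MC1R. The 2 reagents target the same gene, the cells are bulk cultures of a single line, and no cells without a transfected duplex are among the samples, so that every group carries the effects of lipofection. Labels call the replicates biological without saying how the cultures were separated, so p-values measure the spread between these libraries.

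Libraries held 38105026 to 52272147 counted reads. Levels are given in CPM, the usual read count scaled to library depth, here with TMM scaling, as mean ± SD over n = 3 libraries. "Rose", "fell" and "changed" are used where the quasi-likelihood test of edgeR, with Benjamini-Hochberg adjustment over all 14731 genes, gave an adjusted p below 0.05. Log2 fold changes are given as estimate ± SE. The SE was worked back from the test, as the size of the estimate divided by the square root of the F statistic. TBX3 stood at 85.5 ± 2.7 CPM in the controls, 42.3 ± 3.7 CPM with DsiRNA 13.6 and 35.4 ± 1.4 CPM with DsiRNA 13.8. All 8 melanocyte lineage markers exceeded 1 CPM in every group and summed to 13354 to 15372 CPM in the controls, 13841 to 14999 CPM with 13.6 and 17382 to 18184 CPM with 13.8. Keratinocyte markers summed to 39.4 to 46.3 CPM, nearly all KRT10, with no KRT5 read in any library. Of the leukocyte markers CD68 made up most, at 74.2, 100.5 and 78.8 CPM in the control, 13.6 and 13.8 groups, and endothelial markers summed to at most 1.23 CPM. The 6 fibroblast markers summed to 4.79 to 5.98 CPM in the controls, 4.56 to 5.32 CPM with 13.6 and 15.6 to 19.0 CPM with 13.8, LUM being the highest. Their part in the results below was not tested. In a bulk culture, fewer cells of a kind and less RNA per cell cannot be told apart.

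With DsiRNA 13.6 the supply genes mostly fell. MFSD12 fell the most, from 506 ± 91.4 to 113 ± 4.6 CPM, CTH and GSR fell to 0.509 and 0.475 of their control levels, and GCLC alone rose. Of the 10 genes 8 fell, 1 rose and SLC3A2 did not pass the test. Of all genes tested, 49.9% changed in this comparison, 24.9% higher and 25% lower. The median log2 change of the 10 genes was −0.56 and that of all genes −0.01. With DsiRNA 13.8 the set divided: 4 genes rose (GCLC, MFSD12, CBS and GSS) and 6 fell (CTNS, CTH, GCLM, SLC7A11, SLC3A2 and GSR). Of all genes, 55.5% changed with 13.8, 27.5% higher and 27.9% lower, and the median log2 change was −0.26 for the 10 genes against 0.01 for all. So large a share of all genes changed with either reagent that the count of members called says little about this set. The median size of the log2 change, without sign, was 0.56 for the 10 genes and 0.31 for all genes with 13.6. With 13.8 it was 0.39 for the 10 genes, near the 0.35 of all genes. For each member, the share of all genes with a larger log2 change, without sign, was taken whether or not they were called. It ran from 0.882% (MFSD12) to 76.9% (SLC3A2) with 13.6. With 13.8 it ran from 8.67% (GCLC) to 65.6% (GSS). Both comparisons use the same 3 control libraries and are not independent of each other.

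**Figure D1:**
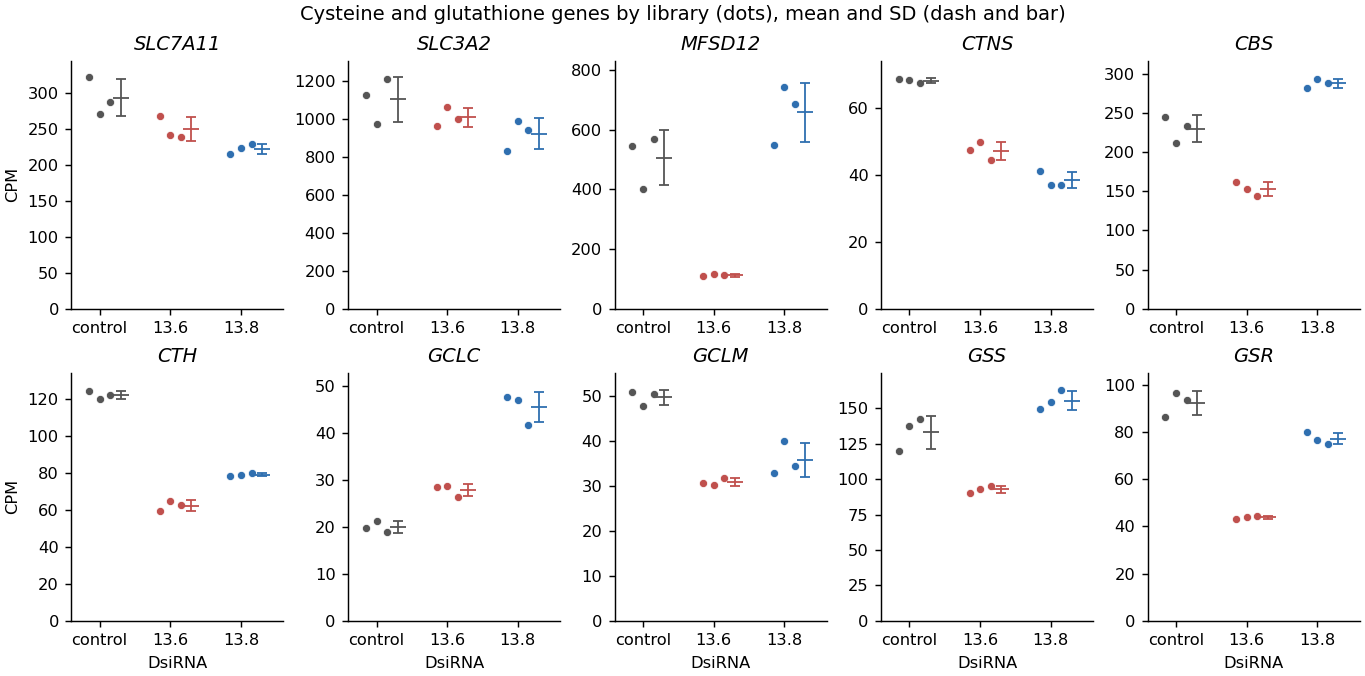
Level of each gene in CPM (vertical axes, linear from 0) in the 3 control, 3 DsiRNA 13.6 and 3 DsiRNA 13.8 libraries; dots are libraries, dashes and bars the mean and SD. MFSD12 lay at 108 to 117 CPM with 13.6, below every other library, and GCLC stood higher in both knock-down groups than in the controls.

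Levels of different genes were compared only per kb of transcript, with the length of the longest principal coding transcript in GENCODE release 29. In the controls SLC3A2 was highest at 511 ± 55.3 CPM per kb, followed by MFSD12 at 238 ± 43.0, CBS at 88.3 ± 6.6, CTH at 67.7 ± 1.2 and GSS at 49.3 ± 4.3 CPM per kb. SLC7A11 at 30.5 ± 2.7 and GSR at 28.9 ± 1.6 CPM per kb overlapped between libraries and had no clear order. CTNS came next at 23.8 ± 0.24, and the subunits of glutamate-cysteine ligase were lowest, GCLM at 10.2 ± 0.35 and GCLC at 5.24 ± 0.33 CPM per kb. With 13.6 MFSD12, at 53.0 ± 2.1, stood below CBS, at 58.9 ± 3.5 CPM per kb, and CTH and GSS overlapped at 34.5 ± 1.6 and 34.3 ± 0.9. With 13.8 MFSD12 was again second, at 310 ± 46.9 CPM per kb, and GSR and SLC7A11 overlapped. These orders depend on the transcript length assumed, because the reads were not assigned to transcripts.

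**Figure D2:**
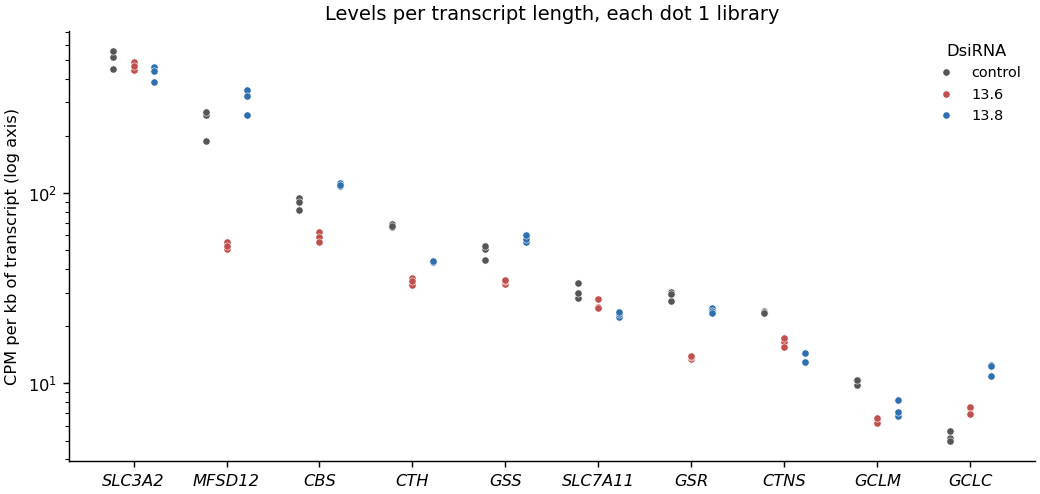
Level per kb of transcript on a log axis, genes ordered by their control mean, each dot 1 library of the control, DsiRNA 13.6 or DsiRNA 13.8 group. SLC3A2 was highest in all 3 groups, and GCLC lay below GCLM in the controls and above it in both knock-down groups. The order of GCLC and GCLM depends on the transcript lengths used. In each 13.6 library GCLC had fewer reads than GCLM.

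Transcripts of the cystine exchanger were lower, the light chain with both reagents and the heavy chain with 13.8. The light chain SLC7A11, which forms the transport path for cystine, read 323, 272 and 288 CPM in the control libraries, 269, 242 and 239 CPM with 13.6, and 215, 224 and 229 CPM with 13.8. Each knock-down library lay below each control library; the highest 13.6 library came close to the lowest control. SLC7A11 fell by 0.23 ± 0.07 on the log2 scale with 13.6 (adjusted p = 0.016 by edgeR) and by 0.40 ± 0.07 with 13.8 (adjusted p = 0.00040 by edgeR). The smaller fall rests on single libraries, since it no longer passed when control replicate 1 (−0.16) or 13.6 replicate 2 or 3 (−0.21 each) was taken out. An antisense gene, SLC7A11-AS1, overlaps 865 exonic bases and had 2 to 32 reads per library, against 10300 to 14935 for SLC7A11.

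The heavy chain SLC3A2, which brings several amino acid exchangers to the cell surface, read 1126, 974 and 1210.3 CPM in the controls. It read 964, 1063 and 1002 CPM with 13.6 and 832, 991 and 943 CPM with 13.8, and the groups overlapped. The change with 13.6 was −0.13 ± 0.09 (adjusted p = 0.25 by edgeR). With 13.8 SLC3A2 fell by 0.26 ± 0.09 (adjusted p = 0.023 by edgeR), a call that was lost without control replicate 1 (−0.25) or 3 (−0.19), without 13.8 replicate 1 (−0.19), or with the 13.6 libraries out of the fit (−0.25). The ratio of SLC7A11 to SLC3A2 reads, in which library scaling cancels, was 0.268 ± 0.026 in the controls, 0.248 ± 0.027 with 13.6 and 0.243 ± 0.016 with 13.8 (n = 3 each). The exact permutation test of this ratio over the 1680 assignments of 9 libraries to 3 groups gave p = 0.464, also after adjustment over the 2 ratios tested.

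Among the organelle transporters, MFSD12 showed the widest difference of the 10 genes. It read 547, 402 and 570.4 CPM in the controls, 108, 117 and 112 CPM with 13.6, and 549, 743 and 685 CPM with 13.8. All 3 libraries with 13.6 lay far below the rest, whereas the lowest 13.8 library fell inside the control range. MFSD12 fell by 2.17 ± 0.14 on the log2 scale with 13.6, a loss to 0.223 of the control level (adjusted p = 1.4e-07 by edgeR). Of all genes, called or not, 0.882% had a larger log2 change, without sign. With 13.8 MFSD12 rose by 0.38 ± 0.13 (adjusted p = 0.026 by edgeR). That rise did not pass without control replicate 2 (0.24), 13.8 replicate 2 (0.28) or 13.8 replicate 3 (0.35), or with no filter on low counts (0.37). The difference between the reagents, tested directly, was −2.55 ± 0.14 (adjusted p = 2.1e-08 by edgeR).

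In GENCODE release 29, on GRCh38, MFSD12 shares 369 exonic bases, 6.99% of its exons, with HMG20B, a gene on the opposite strand. It also shares 565 bases (10.7%) with the antisense gene AC005786.3, not analysed here, 255 bases (4.83%) with C19orf71, which had 15 to 68 reads per library, and 70 bases with FZR1, all on the opposite strand. HMG20B, which encodes a subunit of a neuronal-gene repressor complex, moved almost in parallel: 293, 253 and 346 CPM in the controls, 79.5, 76.0 and 86.3 CPM with 13.6, and 286, 385 and 370 CPM with 13.8. Its log2 change was −1.88 ± 0.13 with 13.6 (adjusted p = 2.0e-07 by edgeR) and 0.22 ± 0.12 with 13.8 (adjusted p = 0.14 by edgeR). The library kit keeps strand, but whether the counting used it is not given in the sources used here. Without strand, reads of the shared stretch cannot be told apart, and their part in the MFSD12 result was not tested.

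The 250 bases before the start of MFSD12 are shown because this gene changed most. They lie at chr19:3557587-3557836 on the minus strand of GRCh38.p14, from RefSeq, and are printed 5′ to 3′ in lower case because none of 5 motifs was found there on either strand.
MFSD12: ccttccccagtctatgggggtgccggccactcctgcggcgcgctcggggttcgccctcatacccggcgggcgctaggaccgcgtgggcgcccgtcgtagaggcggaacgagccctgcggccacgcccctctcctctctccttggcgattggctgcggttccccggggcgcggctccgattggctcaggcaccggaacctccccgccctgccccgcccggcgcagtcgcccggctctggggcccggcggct
The motifs were TGACNNNGC, the core of the antioxidant response element, TGATGNAA of the amino acid response, GGTGTGA of T-box factors, and the E-boxes CACGTG and CATGTG. They occurred in 10.9%, 3.16%, 2.77%, 6.31% and 9.44% of 34786 windows of this length. No match says only that these letters are not in this window.

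CTNS, whose loss lets cystine build up in lysosomes, fell with both reagents. It read 68.8, 68.4 and 67.4 CPM in the controls, 47.5, 49.9 and 44.4 CPM with 13.6, and 41.3, 37.0 and 37.0 CPM with 13.8. The 3 groups did not overlap. CTNS fell by 0.53 ± 0.07 with 13.6 (adjusted p = 2.6e-05 by edgeR) and by 0.83 ± 0.07 with 13.8 (adjusted p = 3.1e-07 by edgeR). It was the one member called higher with 13.6 than with 13.8, by 0.30 ± 0.07 (adjusted p = 0.0019 by edgeR).

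The transsulfuration enzymes parted with 13.8. CBS joins homocysteine to serine and feeds the pathway. It read 245, 212 and 233 CPM in the controls, 162, 154 and 144 CPM with 13.6, and 282, 294 and 289 CPM with 13.8, with no overlap between groups. CBS fell by 0.59 ± 0.07 with 13.6 (adjusted p = 1.0e-05 by edgeR) and rose by 0.33 ± 0.07 with 13.8 (adjusted p = 0.0011 by edgeR). CTH, which releases cysteine in the next step, read 124, 120.1 and 122 CPM in the controls, 59.2, 65.0 and 62.4 CPM with 13.6, and 78.3, 78.8 and 79.8 CPM with 13.8. It was lower in each knock-down library than in any control and lowest with 13.6. CTH fell by 0.97 ± 0.06 with 13.6 (adjusted p = 2.6e-08 by edgeR) and by 0.63 ± 0.06 with 13.8 (adjusted p = 7.0e-07 by edgeR).

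The 2 subunits of glutamate-cysteine ligase moved in opposite directions with both reagents. The catalytic subunit GCLC read 19.7, 21.3 and 18.9 CPM in the controls, 28.5, 28.8 and 26.5 CPM with 13.6, and 47.7, 47.1 and 41.8 CPM with 13.8. The groups stood in 3 separate steps. GCLC rose by 0.48 ± 0.08 with 13.6, which is 1.40-fold (adjusted p = 0.00020 by edgeR), and by 1.19 ± 0.08 with 13.8, which is 2.28-fold (adjusted p = 3.9e-08 by edgeR). The long noncoding gene AL033397.1, on the same strand, shares 529 bases (6.12%) of the exons of GCLC, and stranded counting could not separate them; its part in the result was not tested. The modifier subunit GCLM, which lowers the enzyme's sensitivity to feedback by glutathione, read 50.9, 47.8 and 50.5 CPM in the controls. With 13.6 it read 30.7, 30.1 and 31.8 CPM, and with 13.8 it read 32.9, 39.9 and 34.3 CPM, replicate 2 standing above the other two. GCLM fell by 0.69 ± 0.08 with 13.6 (adjusted p = 8.4e-06 by edgeR) and by 0.48 ± 0.08 with 13.8 (adjusted p = 0.00014 by edgeR).

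As a ratio of reads within a library, GCLC to GCLM was 0.388, 0.447 and 0.374 in the controls. It was 0.927, 0.956 and 0.833 with 13.6, and 1.45, 1.18 and 1.22 with 13.8. The 3 groups did not overlap. The exact permutation test over 1680 assignments gave p = 0.0036, the smallest this design allows, and 0.0071 after adjustment over the 2 ratios. With the replicate number as a block the adjusted p of the exact permutation test was 0.0556. With the other ratio at 0.333 in the same blocked test, this is the smallest adjusted p that the 216 assignments allow. The blocked test could therefore not pass the threshold here.

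**Figure D3:**
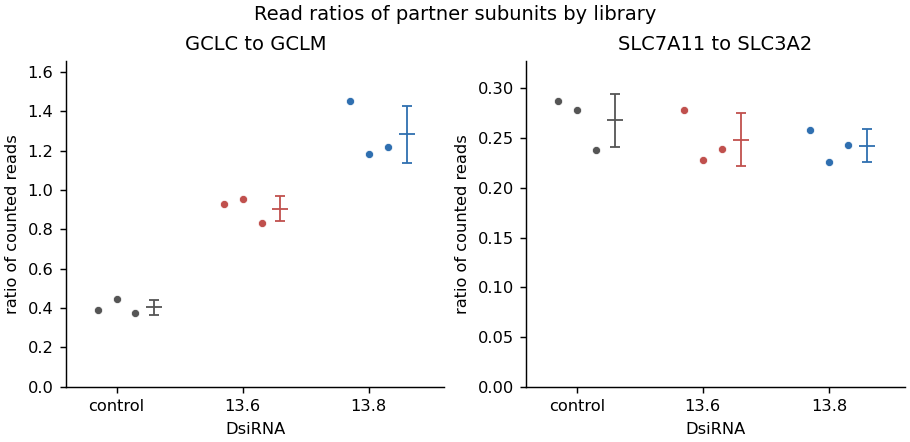
Ratio of counted reads of GCLC to GCLM (left) and of SLC7A11 to SLC3A2 (right) in each library, vertical axes linear from 0; dots are libraries, dashes and bars the mean and SD. GCLC to GCLM went from 0.403 ± 0.038 in the controls to 0.905 ± 0.064 with 13.6 and 1.28 ± 0.15 with 13.8, while the groups overlapped for SLC7A11 to SLC3A2.

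The windows of 250 bases before the starts of both subunits are set side by side because the subunits moved apart. They lie on the minus strands at chr6:53545102-53545351 for GCLC and chr1:93909431-93909680 for GCLM, in GRCh38.p14 from RefSeq, with capitals for a match to any of the 5 motifs on either strand.
GCLC: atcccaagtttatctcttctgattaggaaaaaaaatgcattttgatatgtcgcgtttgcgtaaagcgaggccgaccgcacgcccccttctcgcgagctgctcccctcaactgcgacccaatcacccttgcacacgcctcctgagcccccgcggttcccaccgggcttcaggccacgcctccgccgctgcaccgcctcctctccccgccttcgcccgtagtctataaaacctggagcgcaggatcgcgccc
GCLM: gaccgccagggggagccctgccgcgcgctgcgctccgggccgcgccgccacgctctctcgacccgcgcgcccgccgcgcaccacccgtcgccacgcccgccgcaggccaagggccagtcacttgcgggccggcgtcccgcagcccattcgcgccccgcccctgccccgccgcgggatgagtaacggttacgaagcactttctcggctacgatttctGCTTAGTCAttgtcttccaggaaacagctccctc
The GCLM window holds 1 match to the antioxidant response core TGACNNNGC, on the reverse strand, its first printed base 34 bases before the start, and the GCLC window holds none of the 5 motifs. Of the 10 genes 7 had a window in the search, with 12 windows in all. No window of SLC7A11, GSS or GSR was searched. The same core occurred in a window of SLC3A2 and in one of CBS, and the other 4 motifs in none of the 12. This core occurred in 10.9% of the 34786 windows searched. A match is a string of letters, and a missing match says only that the letters are not in these 250 bases. Factor binding was not measured.

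GSS, which adds glycine to complete glutathione, read 120.1, 137 and 142 CPM in the controls, 90.0, 93.3 and 94.9 CPM with 13.6, and 149, 154 and 163 CPM with 13.8. All 13.6 libraries were lower and all 13.8 libraries higher than the controls. GSS fell by 0.52 ± 0.07 with 13.6 (adjusted p = 3.7e-05 by edgeR). With 13.8 it rose by 0.22 ± 0.07 (adjusted p = 0.014 by edgeR), which did not pass without control replicate 1 (0.15) or 13.8 replicate 3 (0.18).

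GSR, which recycles glutathione, read 86.7, 96.5 and 93.8 CPM in the controls, 43.1, 43.9 and 44.5 CPM with 13.6, and 79.9, 76.9 and 75.2 CPM with 13.8. The 13.6 libraries lay far below the others, and all 13.8 libraries lay below the controls. GSR fell by 1.07 ± 0.06 with 13.6 (adjusted p = 2.2e-08 by edgeR) and by 0.26 ± 0.06 with 13.8 (adjusted p = 0.0027 by edgeR).

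Set directly against each other, the reagents differed in most of these genes. With 13.6, 7 of the 10 were lower than with 13.8 and 1, CTNS, was higher, where 61.1% of all genes differed, 30.2% lower and 30.9% higher. MFSD12 differed most. CBS differed by −0.91 ± 0.07, GSR by −0.82 ± 0.06, GSS by −0.75 ± 0.07 and GCLC by −0.71 ± 0.08. CTH differed by −0.34 ± 0.06, and GCLM by −0.21 ± 0.08 (adjusted p = 0.031 by edgeR), the latter not passing without 13.6 replicate 1 (−0.20) or 2 (−0.19), without 13.8 replicate 2 (−0.12) or with no filter (−0.19). SLC3A2 differed by 0.13 ± 0.09 (adjusted p = 0.21 by edgeR). SLC7A11 differed by 0.17 ± 0.07 (adjusted p = 0.062 by edgeR), although its 13.6 and 13.8 libraries did not overlap. It passed, at 0.16 to 0.18, under 5 alternatives: no filter, only these groups in the fit, the replicate block, and without control replicate 1 or 3. TBX3 itself was 0.26 ± 0.07 higher with 13.6 (adjusted p = 0.0070 by edgeR).

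**Figure D4:**
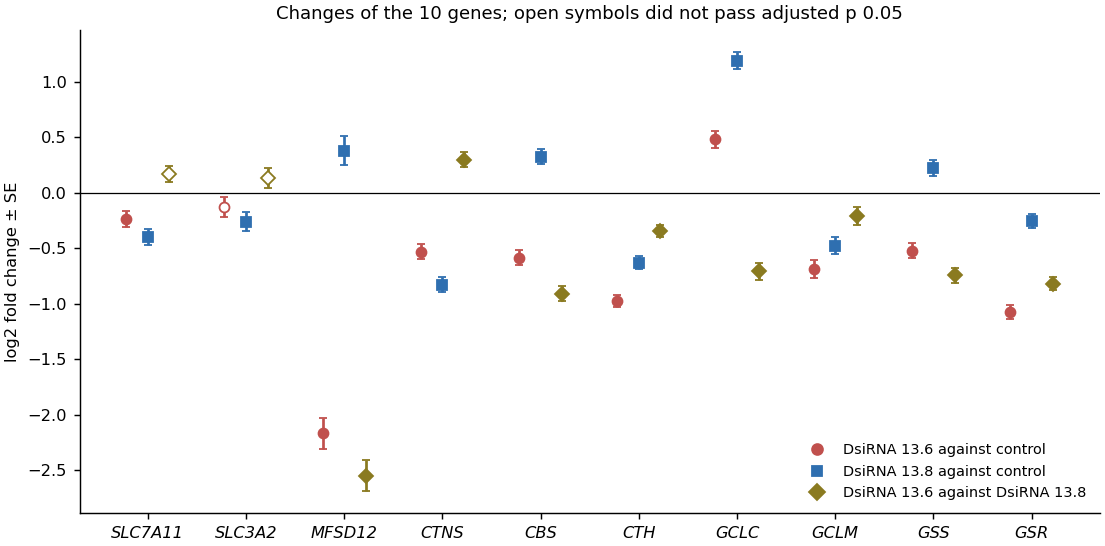
Log2 fold change ± SE (vertical axis) of each gene for DsiRNA 13.6 against control, 13.8 against control, and 13.6 against 13.8; open symbols had an adjusted p of 0.05 or more. MFSD12 at −2.17 with 13.6 lies apart from the others, and MFSD12, CBS and GSS have opposite signs with the 2 reagents.

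Averaged over both reagents, 7 of the 10 genes were lower than in the controls, 1 higher and 2 not past the test, where 50.2% of all genes changed, 23.3% higher and 26.9% lower. CTH (−0.80 ± 0.05), CTNS (−0.68 ± 0.06), GSR (−0.67 ± 0.05), GCLM (−0.58 ± 0.07) and SLC7A11 (−0.32 ± 0.06) were lower, and GCLC was higher by 0.83 ± 0.07. In these 6 genes all 6 knock-down libraries lay on the same side of the 3 controls. How many of all genes separate in this way was not counted, so this describes these genes only. SLC3A2 was called at −0.19 ± 0.08 (adjusted p = 0.048 by edgeR), a call lost under 9 of the alternative settings. For MFSD12 the mean of −0.89 ± 0.11 joins a large fall and a small rise and describes neither reagent. CBS (−0.13 ± 0.06) and GSS (−0.15 ± 0.06) did not pass for the mean, with adjusted p = 0.077 and 0.051 by edgeR. CBS passed without control replicate 2 (−0.19, adjusted p = 0.022 by edgeR). GSS passed under 6 alternatives, at −0.15 to −0.22: DESeq2, DESeq2 size factors, library totals, the replicate block, and without control replicate 1 or 13.8 replicate 3.

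Other genes of the same chemistry were read against the shares of all genes: 24.9% rose and 25% fell with 13.6, and 27.5% rose and 27.9% fell with 13.8. Several of the counts below lie near those shares, and a count near them is not a result about its list. Among 15 tested amino acid transporters, 7 rose and 4 fell with 13.6 (median 0.23) and 4 rose and 4 fell with 13.8 (median −0.06). SLC1A4, a neutral amino acid carrier, fell by 0.91 ± 0.08 with 13.6 and by 0.44 ± 0.08 with 13.8. SLC7A8, another partner of SLC3A2, rose by 0.69 ± 0.07 with 13.6 and by 1.27 ± 0.07 with 13.8. SLC7A5, which also pairs with SLC3A2, fell by 0.40 ± 0.08 with 13.6 and by 0.81 ± 0.08 with 13.8. Of 17 methionine cycle and transsulfuration genes 2 rose and 7 fell with 13.6 (median 0.02) and 4 rose and 3 fell with 13.8 (median 0.02). AHCYL1, a relative of the homocysteine-releasing enzyme, fell by 0.95 ± 0.06 with 13.6 and by 0.25 ± 0.06 with 13.8. MAT2B, a regulatory subunit in methionine activation, rose by 0.29 ± 0.07 with 13.6 and fell by 0.95 ± 0.07 with 13.8.

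Of 11 genes that break down glutathione or run the gamma-glutamyl cycle, 1 rose and 6 fell with 13.6 (median −0.22) and 4 rose and 4 fell with 13.8 (median 0.06). GGCT, which releases oxoproline, fell by 1.70 ± 0.09 with 13.6 and by 0.57 ± 0.08 with 13.8. OPLAH, which opens oxoproline to glutamate, fell by 1.27 ± 0.09 with 13.6 and by 0.39 ± 0.08 with 13.8. CHAC1, which degrades glutathione inside the cell, fell by 0.69 ± 0.10 with 13.6 and rose by 0.54 ± 0.10 with 13.8. Between the reagents 7 of these 11 were lower with 13.6 and the other 4 did not pass, with a median difference of −0.70. Of all genes, 30.2% were lower and 30.9% higher in that comparison. Other lists also shifted there. Of the 17 methionine cycle and transsulfuration genes 10 were lower with 13.6 and 1 higher (median −0.35). Of the 18 regulators around NRF2 and ATF4, described below, 10 were higher and 2 lower (median 0.24). Glutathione-using enzymes split, 3 of 22 higher and 8 lower with 13.6 (median −0.03) and 5 higher and 6 lower with 13.8 (median 0.02). The transferases GSTA4 and GSTK1 fell by 0.53 ± 0.08 and 0.89 ± 0.09 with 13.6 and rose by 1.12 ± 0.08 and 0.87 ± 0.09 with 13.8. Others went the other way: PRDX6 rose by 0.50 ± 0.06 with 13.6 and fell by 0.40 ± 0.06 with 13.8. The transferase GSTO1 did not pass with 13.6 (0.14 ± 0.08) and fell by 0.73 ± 0.08 with 13.8.

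Of 17 genes of NADPH supply and the thioredoxin system, 2 rose and 8 fell with 13.6 (median −0.23) and 2 rose and 7 fell with 13.8 (median −0.14). PGD of the pentose phosphate pathway fell by 0.72 ± 0.07 with 13.6 and did not pass with 13.8 (0.04 ± 0.07). The thioredoxin reductase TXNRD1 fell by 0.60 ± 0.06 with 13.6 and by 0.30 ± 0.06 with 13.8. Of 18 regulators around NRF2 and ATF4, factors known to drive SLC7A11 and, for NRF2, also GCLC and GCLM, 6 rose and 6 fell with 13.6 (median −0.06) and 5 rose and 9 fell with 13.8 (median −0.05). MAFF, a small partner of NRF2, fell by 0.91 ± 0.07 and 1.82 ± 0.07, and the stress factor ATF3 by 0.86 ± 0.06 and 1.11 ± 0.06, with 13.6 and 13.8 in turn. BACH1, a repressor at antioxidant response elements, rose by 0.72 ± 0.07 with 13.6 and by 0.21 ± 0.07 with 13.8. NFE2L2, the gene of NRF2, did not pass with 13.6 (−0.09 ± 0.05) and fell by 0.14 ± 0.05 with 13.8. ATF4 passed with neither reagent (−0.05 ± 0.10 and 0.12 ± 0.10 in turn). MAFG, like MAFF a small partner of NRF2, rose by 0.25 ± 0.06 with 13.6 and fell by 0.88 ± 0.06 with 13.8. The activity of these factors was not measured. Among 17 melanosome and pigment genes 4 rose and 5 fell with 13.6 (median 0.06) and 6 rose and 5 fell with 13.8 (median −0.03). TYR, which makes the dopaquinone that cysteine joins, rose by 1.09 ± 0.07 with 13.6 and by 0.84 ± 0.07 with 13.8. OCA2 of the same list fell by 1.51 ± 0.12 with 13.6 and by 1.44 ± 0.12 with 13.8. TYRP1 fell by 0.42 ± 0.06 with 13.6 and rose by 1.12 ± 0.06 with 13.8. The lists show counts and medians only and were not tested as sets.

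**Figure D5:**
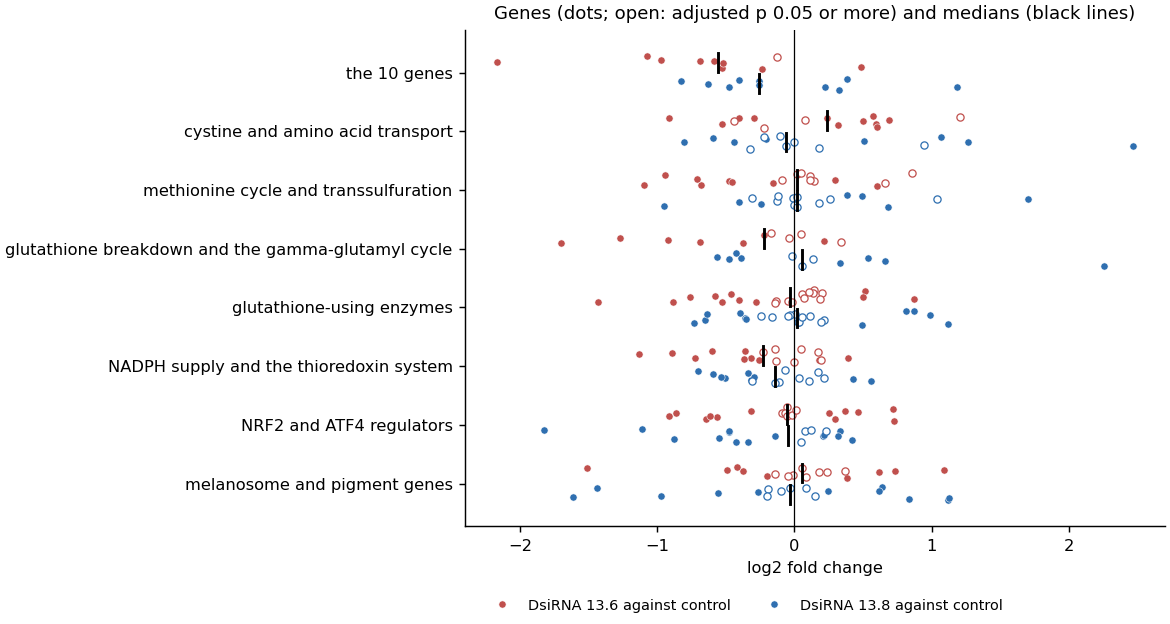
Log2 fold change (horizontal axis) of each tested gene in the 10-gene set and 7 related lists with DsiRNA 13.6 (red) and 13.8 (blue) against control; filled dots had an adjusted p under 0.05 and black lines are medians. The 10 genes had medians of −0.56 and −0.26, and the related lists had medians between −0.23 and 0.23.

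The genes whose levels followed a member most closely over the 9 libraries were named by Pearson's r of log2 CPM, as a description of libraries that fall into 3 groups. For MFSD12 they were the E3 ligase gene MIB2 (r = 0.998), HMG20B (0.996) and OSGIN1, an NRF2 target (0.995). For GSR they were SPATA20 (0.997), TIFA (0.996) and RIC8A (0.995), and for GCLC they were SNN (0.992), BTBD2 (0.991) and CTNNA2 (0.991). For SLC7A11 they were the kinase gene WEE1 (0.976), PLXDC2 (0.974), which was near the detection limit at 0.266 CPM in the controls, and DCBLD2 (0.972). Within the set the closest pairs were MFSD12 with CBS (0.966), CTH with GCLM (0.963) and MFSD12 with GSS (0.954), and CTNS ran most opposite to GCLC (−0.925).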

How the data were processed

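RNA from 9 cultures of 501mel was sequenced from a kit that keeps strand. The submitters' processing notes name the build hg19 and the tools STAR, HTSeq, cutadapt, DESeq2 and FastQC. For their versions, the annotation and the strand setting, the entry is: not given in the sources used here. Raw read counts for each gene symbol were deposited by the authors. A second deposited table holds log2 values of scaled counts, made by the authors; for the 10 genes it gave back the counts within 0.000153 of a read, and it was not used further. Exact repeats of an entry (16) were left out, and 28 entries whose names a spreadsheet turned into dates (0.200% of reads) stayed in the totals.

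Tests used R 4.3.3 and edgeR 4.0.16: filterByExpr (preset of at least 10 reads), TMM, robust quasi-likelihood fit to all 9 libraries with 1 mean per group and 6 residual degrees of freedom, two-sided. The fit was tested on simulated data. The 2 ratios were tested by exact permutation. Correlations used a prior count of 2. Promoters come from RefSeq (GRCh38.p14) and lengths from GENCODE release 29, not the build of the counts. Of the list genes, 2 were matched under older symbols. List genes other than NFE2L2 and ATF4 came from a pool set by rule. Per list and comparison, it held at most 4 called genes with the smallest adjusted p. They also had a mean of at least 1 CPM. The choice within this pool was not made by rule, so the genes named are not the top of each list. HMG20B was singled out after its overlap and values were seen. Members and lists were chosen with earlier results of these data known. Alternatives were DESeq2 1.42.0, limma-voom (3.58.1), other scalings and filters, fewer groups, a replicate block and leaving out each library.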

Additional observations from a re-analysis of the deposited data

How the results depend on the processing

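No alternative reversed the direction of any of the 10 genes in the 4 comparisons; 26 calls of single genes were lost and 12 gained, given beside the genes they concern. Leaving out each library in turn gave 7 to 8 members lower with 13.6, and 2 to 4 higher and 5 to 6 lower with 13.8, the 2 without 13.8 replicate 3, where MFSD12 and GSS were lost; the cause was not tested. For the reagents against each other, it gave 1 to 2 higher and 6 to 7 lower. There, 2 members were higher, SLC7A11 joining CTNS, with no filter, with only the 2 groups in the fit and with the replicate block (2 each). The data do not settle whether replicate numbers pair the samples, so they were treated as unpaired: same-numbered libraries had correlations of their deviations from −0.179 to 0.187, all 3 between the reagents being above 0, and a library correlated best with its own number in 10 of 18 cases. With the replicate block 8010 genes were called with 13.6 in place of 7357, and 8803 with 13.8 in place of 8169. For GCLC to GCLM the block gave an adjusted p of 0.0556 by the exact permutation test. Given the p of the other ratio, this is the smallest its 216 assignments allow after adjustment over the 2 ratios. Without each library in turn the adjusted p was 0.0071. Given the other ratio, that is again the smallest value possible and says nothing about stability. For SLC7A11 to SLC3A2 the adjusted p of the exact permutation test ranged from 0.204 to 0.757 without each library. No scaling moved the median of all genes by over 0.05.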
